A study of Mus musculus with 8 samples.

Results

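Interferon response genes are genes whose transcription rises when a cell senses interferon, a secreted signal of viral infection. The 9 described here are Ifit1, Ifit2, Ifit3, Isg15, Bst2, Irf7, Stat2, Irf9 and Irf1. They were chosen by name, and their Ensembl identifiers were matched to mouse symbols. All 9 of the 9 listed were present among 15538 genes measured. Expression was measured by bulk RNA sequencing of polyadenylated RNA from primary embryonic mouse neural stem cells, a brain cell culture lysed as neurospheres, which are floating clusters of dividing cells. In 4 libraries the labels give the genotype Phf23-/-, homozygous loss of a PHD-finger chromatin protein, and 4 libraries are labelled WT. No interferon or other treatment is named, and the labels give no strain, sex, embryonic day or extent of the Phf23 deletion. They also do not say whether libraries of 1 genotype came from different animals or cultures, so each p-value covers the spread between libraries alone, and that spread may be technical.

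In the interferon pathway, receptors on the cell surface activate JAK kinases, which phosphorylate STAT proteins. STAT2 acts with IRF9 in a complex that binds the interferon-stimulated response element (ISRE) in promoters such as those of the Ifit genes, Isg15 and Bst2. Interferon gamma acts mainly through a separate element, the gamma-activated site (GAS), as in the Irf1 promoter. Stem cells of several tissues are known to hold some of these genes at a basal level without added interferon.

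Promoter sequence is shown for 7 of the genes, the 5 with a match to the ISRE core, Ifit2 for its expression difference and Irf1 for its GAS match. Each run is the 250 bases upstream of an annotated start site, 5′ to 3′ on the strand of the gene (RefSeq, GRCm38.p6), with matches to the ISRE core GAAANNGAAA on either strand in capitals. In the Irf1 run, capitals instead mark a match to the GAS motif TTCNNNGAA, which reads the same on both strands. The windows are chr19:34640639-34640888 for Ifit1, chr19:34583279-34583528 for Ifit3, chr19:34550444-34550693 for Ifit2, chr10:128270248-128270497 for Stat2 and chr11:53769764-53770013 for Irf1, all on the plus strand. Those of Isg15 (chr4:156200819-156201068) and Bst2 (chr8:71537473-71537722) lie on the minus strand.
Ifit1: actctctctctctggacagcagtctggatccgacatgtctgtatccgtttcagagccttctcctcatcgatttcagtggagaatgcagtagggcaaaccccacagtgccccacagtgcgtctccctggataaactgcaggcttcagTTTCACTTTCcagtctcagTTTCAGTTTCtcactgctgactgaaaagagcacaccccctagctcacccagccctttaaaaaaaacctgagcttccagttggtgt
Ifit3: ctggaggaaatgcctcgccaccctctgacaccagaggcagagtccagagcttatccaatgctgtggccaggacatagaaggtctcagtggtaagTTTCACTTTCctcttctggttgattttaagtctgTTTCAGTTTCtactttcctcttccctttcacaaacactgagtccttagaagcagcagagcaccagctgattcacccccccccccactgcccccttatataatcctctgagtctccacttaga
Isg15: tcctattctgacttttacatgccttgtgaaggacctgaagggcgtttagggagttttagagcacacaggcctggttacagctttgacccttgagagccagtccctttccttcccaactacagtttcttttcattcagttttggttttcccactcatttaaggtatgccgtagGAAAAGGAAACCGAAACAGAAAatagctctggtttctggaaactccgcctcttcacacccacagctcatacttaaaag
Bst2: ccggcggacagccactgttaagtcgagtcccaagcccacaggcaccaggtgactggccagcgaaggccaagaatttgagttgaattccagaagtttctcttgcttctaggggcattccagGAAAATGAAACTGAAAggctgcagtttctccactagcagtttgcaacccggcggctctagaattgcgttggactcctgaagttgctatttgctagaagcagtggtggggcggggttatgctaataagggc
Stat2: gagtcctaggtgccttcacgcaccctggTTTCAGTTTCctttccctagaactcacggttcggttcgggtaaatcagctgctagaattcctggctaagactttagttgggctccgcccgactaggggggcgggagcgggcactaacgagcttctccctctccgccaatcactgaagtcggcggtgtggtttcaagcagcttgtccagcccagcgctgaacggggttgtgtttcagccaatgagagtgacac
Ifit2: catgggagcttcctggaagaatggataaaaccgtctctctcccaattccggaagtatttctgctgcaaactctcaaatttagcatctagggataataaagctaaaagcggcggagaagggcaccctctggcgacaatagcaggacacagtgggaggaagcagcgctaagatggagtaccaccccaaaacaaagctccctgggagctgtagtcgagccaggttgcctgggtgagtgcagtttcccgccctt
Irf1: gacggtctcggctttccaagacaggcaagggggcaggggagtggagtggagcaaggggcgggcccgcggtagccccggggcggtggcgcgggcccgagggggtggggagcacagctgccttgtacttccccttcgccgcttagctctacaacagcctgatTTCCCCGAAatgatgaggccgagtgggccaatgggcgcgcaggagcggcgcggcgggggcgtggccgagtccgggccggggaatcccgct

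An ISRE core match was present for 5 of the 9 genes (Ifit1, Ifit3, Isg15, Bst2 and Stat2), against 3.46% of 27025 genes with a window of the same length. Ifit1 and Ifit3 each had 2 separate matches, ending 76 and 95 bases before the start site in Ifit1 and 113 and 147 bases before it in Ifit3. Isg15 had 3 matches that overlap one another, the nearest ending 57 bases before its start, and Bst2 had 2 that overlap. The single match of Stat2 lay farther out, at 213 bases. These letters were not found in either window of Ifit2, either window of Irf9, either window of Irf1 or the window of Irf7. A GAS match was present for Ifit2, Irf1 and Bst2, against 8.13% of all genes. A match is a description of the sequence and was not tested as a binding site.

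The libraries differed in ways that touch several of these genes. Recovered depth ran from 18099114 to 19462516 reads in libraries labelled Phf23-/- and from 15647304 to 18241215 in WT libraries (two-sided exact permutation p = 0.114). Phf23 itself had 1361 to 1607 normalised reads in libraries labelled Phf23-/- and 720 to 919 in WT libraries (log2 fold change 0.89 ± 0.106 SE, limma-trend FDR = 0.000581), so the targeted gene went against its label. A gene total sums all exons, so it is no check of a partial deletion. All directions below are therefore between libraries as labelled. The length slope is the change per doubling of transcript length in log2 value, taken relative to each gene's mean over the 8 libraries. This slope ran from -0.31 to 0.04 in libraries labelled Phf23-/- and from 0.06 to 0.26 in WT libraries (exact permutation p = 0.0286, the smallest that 4 against 4 allows). Short transcripts thus read higher in the libraries labelled Phf23-/-, and each of the 9 genes is also given after the dependence of each library on transcript length and GC content was subtracted (the length and GC trend). All 8 neural stem cell markers were measured, with a summed level of 153196 to 195490 normalised reads in libraries labelled Phf23-/- and 133262 to 143221 in WT libraries (exact permutation p = 0.0286). Of these, Fabp7 and Msi1 were called higher (2 of 8, against 14.8% of all genes). With the trend subtracted 3 of 8 were called higher, against 10.7% of all genes.

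By the mm10 annotation (GENCODE M21), Ifit1 spans chr19:34640871-34650009 and Ifit3 chr19:34583531-34588731, both on the plus strand like Ifit2. Also on the plus strand, Stat2 spans chr10:128270559-128292849, Irf9 chr14:55603571-55610030 and Irf1 chr11:53770014-53778374. On the minus strand, Isg15 spans chr4:156199424-156200818, Bst2 chr8:71534255-71537456 and Irf7 chr7:141262706-141266481.

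Read support split the 9 genes into a readable and a sparse set. A normalised read is a read count divided by the size factor of its library. Stat2 had 2658 reads over the 8 libraries, Irf9 had 1736, Ifit2 had 1536, Irf1 had 1502 and Bst2 had 1028. Irf7 had 74 reads in all, Ifit3 had 58, Ifit1 had 43 and Isg15 had 35, which left these 4 genes with under 10 normalised reads per library on average, and no single library held over 18 reads of any of them. The 5 genes of higher support lay between the 33.0th and the 45.1st percentile of mean level among all genes measured, so none was abundant.

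Of the 9 genes, 2 were called lower in the libraries labelled Phf23-/- and 0 were called higher, at a limma-trend FDR under 0.05. Over all genes 29.6% were called in either direction, 14.8% as higher and 14.8% as lower, so 2 of 9 is near the background. Scaled by library size alone, the calls over all genes split into 1827 higher (11.8%) and 2757 lower (17.7%), 29.5% in all, against 2301 and 2292 as deposited. Both genes were also called lower with the length and GC trend subtracted, where 18.4% of all genes were called (10.7% higher and 7.74% lower). A pseudocount of 0.1 called 29.1% of all genes, and the fit of the 4 libraries with flatter slopes 9.15%. Other fits kept fewer genes. Of the 13324 that each kept, edgeR with DESeq2 size factors and limma-voom each called 35.2%. DESeq2 called 35.5% of 14634 genes, and a minimum mean of 10 called 35.5% of 13271. Among genes that averaged 10 normalised reads or more, 33.9% were called, against 1 of the 5 interferon response genes at that level. The median log2 fold change of the 9 was -0.21, against 0.00 over all genes. Groups did not overlap for 1 of the 9, Ifit2, against 27.7% of all genes (14.2% as lower).

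**Figure D1:**
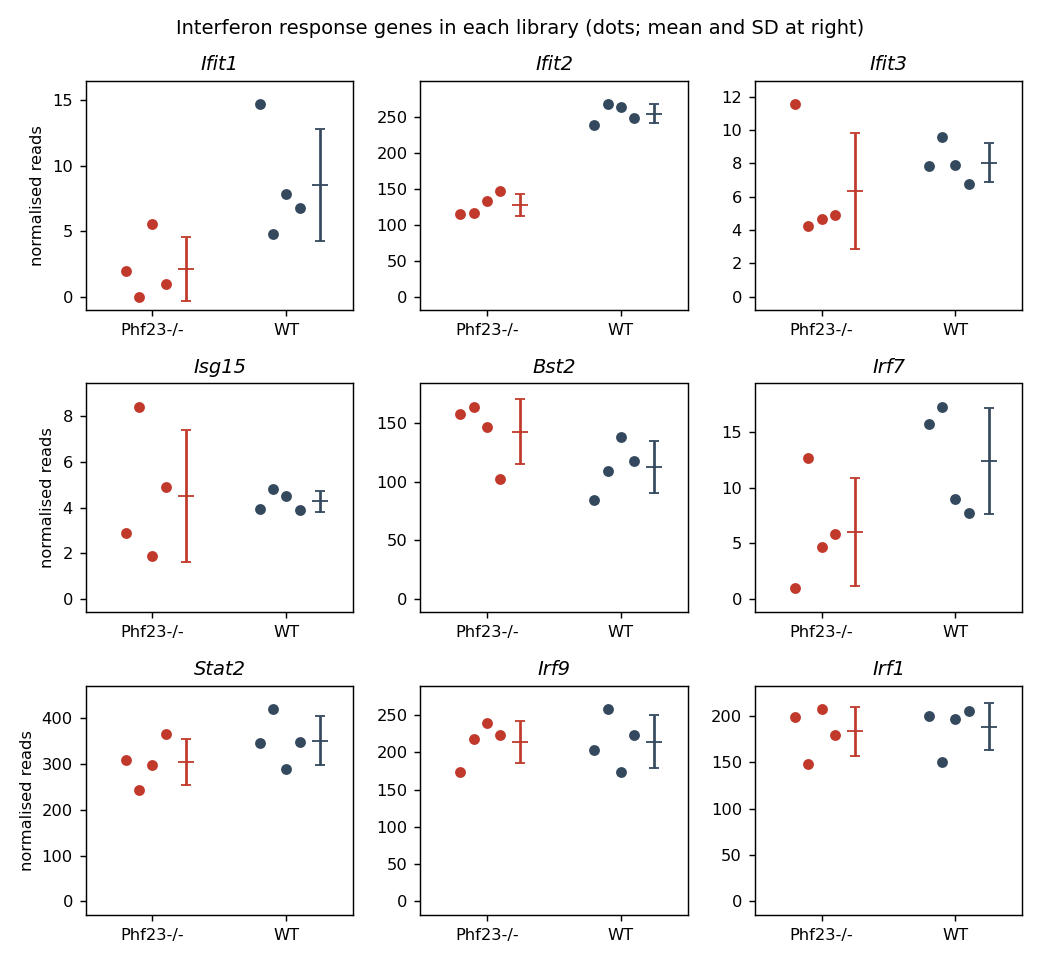
Normalised reads of the 9 interferon response genes in each library (dots), with libraries labelled Phf23-/- on the left and WT on the right, and the mean and SD over 4 libraries beside each group. Axes start near 0 and differ between panels. The Ifit2 libraries labelled Phf23-/- sit between 116 and 147 normalised reads, all below the WT libraries.

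Ifit2 was the clearest difference. It encodes a protein of tetratricopeptide repeats that restricts translation of viral RNA and lies on chromosome 19 (ENSMUSG00000045932, 34550694 to 34576419, plus strand, mm10). It had 116, 116, 133 and 147 normalised reads in libraries labelled Phf23-/- 1 to 4, against 239, 268, 264 and 248 in WT 1 to 4. Every library labelled Phf23-/- was below every WT library. It averaged 128 ± 15.1 in libraries labelled Phf23-/- and 255 ± 13.8 in WT libraries (SD, n = 4 each), so it was 1.99-fold lower in the libraries labelled Phf23-/-. The log2 fold change was -0.995 ± 0.132 SE (95% interval -1.28 to -0.71, limma-trend FDR = 0.00097). Of 13271 genes that averaged 10 normalised reads or more, 2.15% had a lower log2 fold change.

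The Ifit2 difference stayed called with the length and GC trend subtracted (log2 fold change -0.82 ± 0.126 SE, limma-trend FDR = 0.000639), where the groups also did not overlap. Leaving out any 1 library gave log2 fold changes from -1.06 to -0.95 (limma-trend FDR from 0.000363 to 0.00722). With the length slope entered as a covariate the call ended, at a log2 fold change of -0.79 (limma-trend FDR = 0.0826), a fit in which 1.09% of all genes were called. The raw counts gave the same direction, with an edgeR log2 fold change of -0.99 (edgeR FDR = 0.00108) in a test that called 35.1% of the 13324 genes it kept.

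Ifit1, which encodes a protein that binds RNA lacking the cap methylation of host messages, was also called lower, on few reads. Its recovered reads were 2, 0, 6 and 1 in libraries labelled Phf23-/- 1 to 4, against 15, 5, 7 and 7 in WT 1 to 4. The groups overlapped, since Phf23-/- 3 was above WT 2 after normalisation (5.58 against 4.8 normalised reads), and WT 1 held the most reads. The sums were 9 reads in libraries labelled Phf23-/- (exact Poisson 95% interval 4.12 to 17.1) and 34 in WT libraries (23.5 to 47.5), intervals that cover counting error only. The mean was 2.12 ± 2.44 normalised reads in libraries labelled Phf23-/- and 8.54 ± 4.31 in WT libraries (SD, n = 4 each), with a log2 fold change of -1.84 ± 0.6 SE (95% interval -3.14 to -0.54, limma-trend FDR = 0.0361).

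The Ifit1 call was lost in 13 of 17 alternatives. It was kept without Phf23-/- 3 and lost without any other single library (limma-trend FDR from 0.0219 to 0.117 over the 8 such fits). It was called with the trend subtracted (log2 fold change -1.81, limma-trend FDR = 0.0494) and by DESeq2 (FDR = 0.0471), and not by edgeR without a filter (edgeR FDR = 0.0648), which called 29.6% of genes. The log2 fold change was -0.996 with the slope covariate (limma-trend FDR = 0.799), -1.20 without the 4 libraries of steepest slope (limma-trend FDR = 0.362) and -2.91 with a pseudocount of 0.1 (limma-trend FDR = 0.0639).

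Ifit3, which encodes a partner of the other IFIT proteins, was not called. It had 12, 4, 5 and 5 reads in libraries labelled Phf23-/- 1 to 4, against 8, 10, 7 and 7 in WT 1 to 4. The library Phf23-/- 1 was above all WT libraries and the other three of that label were below them. The log2 fold change was -0.39 ± 0.401 SE (95% interval -1.26 to 0.47, limma-trend FDR = 0.488), an interval that holds both no change and a fall as large as that of Ifit2. With the trend subtracted it was -0.59 (limma-trend FDR = 0.341). Ifit3b, a close copy of Ifit3 in the same cluster, was not among the genes measured, and how the authors' counting treated reads shared by the copies is not stated.

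The Ifit genes sit side by side on chromosome 19, and the measured genes around Ifit2 did not all share its direction. Of 11 annotated protein-coding genes that reach within 250 kb of Ifit2, 9 were measured. Of these, Ifit2 and Ifit1 were called lower and 0 were called higher, against 14.8% of all genes in each direction. Both are among the interferon response genes already counted above. Lipa, a lysosomal lipase gene whose start lies at -58.4 kb from that of Ifit2, averaged 412 ± 12.6 normalised reads in libraries labelled Phf23-/- and 506 ± 71.9 in WT libraries (SD, n = 4 each, limma-trend FDR = 0.0871). Fas, a death receptor gene and the far upstream neighbour, had a log2 fold change of 0.24 ± 0.163 SE (limma-trend FDR = 0.294). Pank1, a pantothenate kinase gene on the other side, was at 0.09 ± 0.143 SE (limma-trend FDR = 0.675) and was called higher at 0.51 once the length and GC trend was subtracted (limma-trend FDR = 0.00489).

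Between them, Ifit1bl1 and Ifit1bl2 had 11 reads each over the 8 libraries, too few to read a direction. Slc16a12, a monocarboxylate transporter gene just past Ifit1, had 49 reads and averaged 2.82 ± 3.79 normalised reads in libraries labelled Phf23-/- and 9.24 ± 6.91 in WT libraries (log2 fold change -1.71 ± 0.679 SE, limma-trend FDR = 0.0744).

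**Figure D2:**
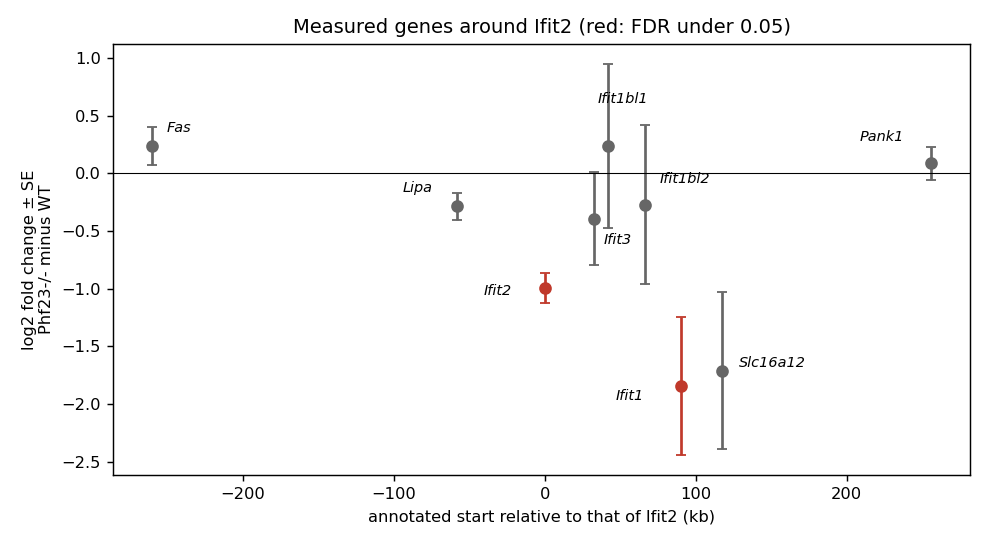
Log2 fold change (libraries labelled Phf23-/- minus WT) ± SE of the 9 measured protein-coding genes that reach within 250 kb of Ifit2, against the distance of their annotated start from that of Ifit2 in kb. Ifit2 and Ifit1, in red, passed an FDR of 0.05, while Lipa and Ifit3 were at -0.29 and -0.39 and the outermost genes Fas and Pank1 were slightly above 0.

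Isg15, a small ubiquitin-like protein that is attached to other proteins during the interferon response, could not be resolved at this depth. Its reads were 3, 8, 2 and 5 in libraries labelled Phf23-/- 1 to 4, against 4, 5, 4 and 4 in WT 1 to 4. The WT libraries lay within the range of the libraries labelled Phf23-/-. The log2 fold change was -0.08 ± 0.473 SE (95% interval -1.10 to 0.95, limma-trend FDR = 0.92). Its longest annotated transcript has 756 nt, and the estimate was -0.66 ± 0.491 SE once the length and GC trend was subtracted (limma-trend FDR = 0.366). That trend was fitted to genes with more reads, so its value for Isg15 is an extrapolation.

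Bst2, or tetherin, holds budding virus at the cell surface. It had 158, 164, 147 and 103 normalised reads in libraries labelled Phf23-/- 1 to 4, against 84.4, 109, 138 and 118 in WT 1 to 4. Of the libraries labelled Phf23-/-, 1 to 3 were above every WT library, while Phf23-/- 4 lay among them. The mean was 143 ± 27.8 in libraries labelled Phf23-/- and 113 ± 22.4 in WT libraries (SD, n = 4 each), and the difference was not called (log2 fold change 0.34 ± 0.195 SE, 95% interval -0.08 to 0.76, limma-trend FDR = 0.203). It was called as higher only when Phf23-/- 4 was left out (log2 fold change 0.49, limma-trend FDR = 0.0497).

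The sign of the Bst2 estimate turned with the length correction. Its longest annotated transcript has 792 nt, and the trend removed at that length and GC content was 0.64 on the log2 scale, more than the estimate itself. The remainder was -0.30 ± 0.140 SE (limma-trend FDR = 0.142). Leaving out the 4 libraries with the steepest slopes (1 and 2 of each label), it was -0.057 (limma-trend FDR = 0.915).

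**Figure D3:**
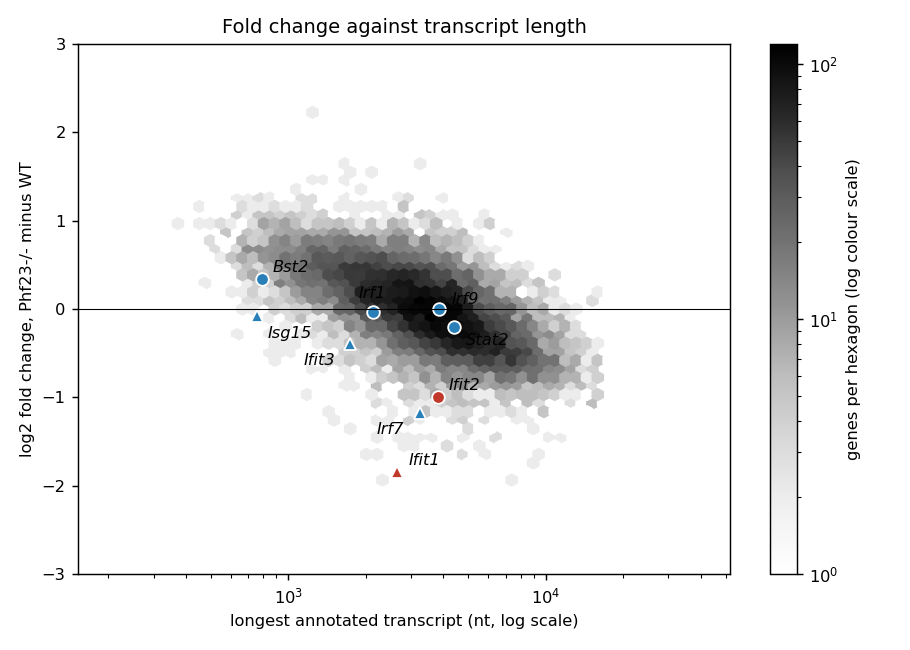
Log2 fold change (libraries labelled Phf23-/- minus WT) against the longest annotated transcript in nt (log axis). Grey hexagons count genes that averaged 10 normalised reads or more, circles are the 5 interferon response genes of that level, triangles are the 4 sparser ones, and red marks an FDR under 0.05. Bst2 and Isg15, at 792 and 756 nt, lie below the trend at their length, and Ifit2, at 3818 nt, lies below the bulk of genes.

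Of the 9 genes, the 4 that encode transcription factors (Stat2, Irf9, Irf1 and Irf7) were not called. Stat2, the interferon-specific STAT, had 310, 244, 299 and 366 normalised reads in libraries labelled Phf23-/- 1 to 4, against 346, 420, 290 and 349 in WT 1 to 4. The groups overlapped widely. The mean was 305 ± 49.9 in libraries labelled Phf23-/- and 351 ± 53.3 in WT libraries (SD, n = 4 each), with a log2 fold change of -0.21 ± 0.150 SE (95% interval -0.53 to 0.12, limma-trend FDR = 0.317). With the length and GC trend subtracted it was -0.13 (limma-trend FDR = 0.491).

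Irf9, the DNA-binding partner of STAT2, had 174, 218, 240 and 224 normalised reads in libraries labelled Phf23-/- 1 to 4, against 203, 258, 174 and 223 in WT 1 to 4. The group ranges were nearly the same, and each group had a library at 174. The mean was 214 ± 28.1 in libraries labelled Phf23-/- and 215 ± 35.2 in WT libraries (SD, n = 4 each), and the 95% interval of the log2 fold change was -0.33 to 0.33 (limma-trend FDR = 0.998), and the subtracted value was 0.049 (limma-trend FDR = 0.836). Irf9 shares 123 nt of annotated exon with Rnf31 on the same strand, so reads there cannot be told apart.

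Irf1, an early factor induced by interferon gamma and by inflammatory signals, had 199, 148, 207 and 179 normalised reads in libraries labelled Phf23-/- 1 to 4, against 200.2, 151, 197 and 205 in WT 1 to 4. Each group had a single low library, number 2 in both. The mean was 184 ± 26.3 in libraries labelled Phf23-/- and 188 ± 25.3 in WT libraries (SD, n = 4 each), with a log2 fold change of -0.04 ± 0.154 SE (95% interval -0.37 to 0.30, limma-trend FDR = 0.879). The subtracted value was -0.28 (95% interval -0.59 to 0.04, limma-trend FDR = 0.204). A change of Irf1 or Irf9 as large as that of Ifit2 lies outside these intervals. Irf1 shares 135 nt of annotated exon with Gm17334 on the opposite strand, a gene that was not measured.

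Irf7, which drives the amplification of type I interferon production, had 1, 12, 5 and 6 reads in libraries labelled Phf23-/- 1 to 4, against 16, 18, 8 and 8 in WT 1 to 4. The library Phf23-/- 2 lay within the WT range and the other three were below it. The sums were 24 reads in libraries labelled Phf23-/- (exact Poisson 95% interval 15.4 to 35.7) and 50 in WT libraries (37.1 to 65.9), and the log2 fold change of -1.17 ± 0.547 SE was not called (95% interval -2.36 to 0.01, limma-trend FDR = 0.122), nor was the subtracted value of -1.30 (limma-trend FDR = 0.110). Irf7 shares 45 nt of annotated exon with Phrf1 on the opposite strand. Phrf1 averaged 1319 normalised reads over all libraries, and the strand setting of the counting is not given.

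**Figure D4:**
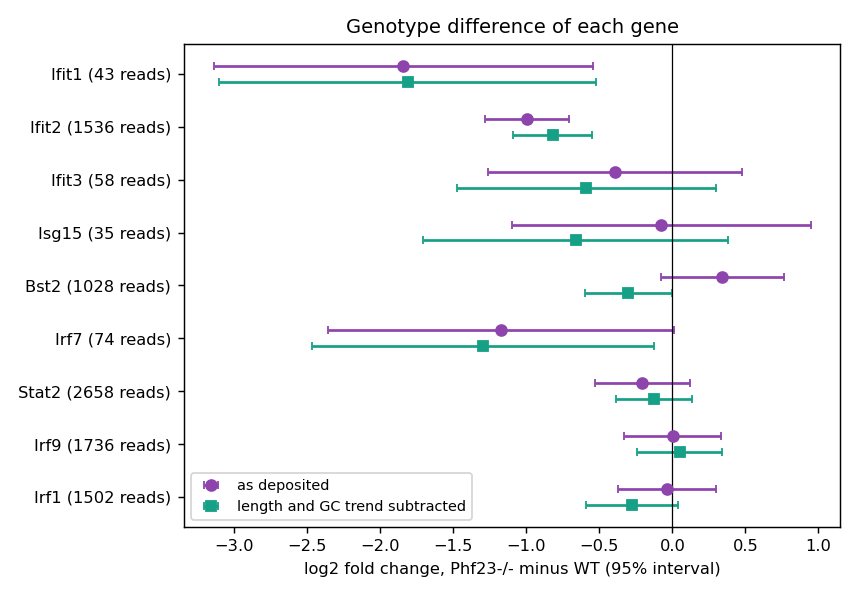
Log2 fold change (libraries labelled Phf23-/- minus WT) with its 95% interval for each of the 9 genes, as deposited (circles) and with the length and GC trend subtracted (squares), with recovered reads over the 8 libraries beside each name. The intervals of Ifit2 and Ifit1 stay below 0 in both fits, those of Stat2, Irf9 and Irf1 span 0, and Bst2 moves from 0.34 to -0.30. With the trend subtracted, the intervals of Bst2 (-0.60 to -0.0042) and Irf7 (-2.47 to -0.13) also lie below 0, and neither gene was called.

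Per length of merged annotated exons, Bst2 stood highest of the 9 in both genotypes, at 158 ± 30.7 normalised reads per kb in libraries labelled Phf23-/- and 125 ± 24.8 in WT libraries (SD, n = 4 each). Ifit2 ranked 5 of 9 in the libraries labelled Phf23-/-, at 32.5 ± 3.84 per kb, and was next after Bst2 in WT libraries, at 64.9 ± 3.52 per kb. In libraries labelled Phf23-/- it followed Stat2, Irf1 and Irf9, at 51.4, 46.2 and 39.7 per kb, and neighbours in that order overlapped in range. In WT libraries Ifit2 and Stat2 (59.3 per kb) overlapped, as did Stat2 with Irf1 (47.4) and Irf1 with Irf9 (39.9). The means of Isg15, Ifit3, Irf7 and Ifit1 were lowest in that order in both groups, between 5.97 and 0.799 per kb in libraries labelled Phf23-/- and between 5.66 and 3.22 in WT libraries. Neighbours among these sparse genes overlapped in range in both groups, so their order is not resolved. The order among Stat2, Irf1, Irf9 and Ifit2 depends on the length used. With the longest transcript in place of merged exons, Irf1 had 85.9 per kb in libraries labelled Phf23-/- and 88.1 in WT libraries, above Stat2 at 69.3 in libraries labelled Phf23-/- and 79.9 in WT libraries. By that length Ifit2 had 33.5 per kb in libraries labelled Phf23-/- and 66.7 in WT libraries. It was then below Irf1 and Stat2 in WT libraries and no longer next after Bst2.

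The rest of the pathway was read from lists of 103 further genes, of which 83 were measured. Of these, 8 were called higher and 6 lower, which is 16.9% against 29.6% of all genes, with a median log2 fold change of 0.04. Errors on the means below are SDs over 4 libraries of each label. With the length and GC trend subtracted, 4 were called higher and 5 lower, where 18.4% of all genes were called. The interferon genes on the list (Ifnb1, Ifna2, Ifna4 and Ifng) had no value in the table used here, so the signal itself was not measured.

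Among 11 measured sensors of foreign nucleic acid and their relays, 1 was called higher and 2 lower, against 14.8% of all genes in each direction. Cgas, the sensor of cytosolic DNA, averaged 122 ± 21.8 normalised reads in libraries labelled Phf23-/- and 220.3 ± 20.3 in WT libraries (log2 fold change -0.86 ± 0.158 SE, limma-trend FDR = 0.005), and every library labelled Phf23-/- was below every WT library. Tlr3, the endosomal sensor of double-stranded RNA, averaged 229 ± 23.7 in libraries labelled Phf23-/- and 367 ± 69.8 in WT libraries (log2 fold change -0.66 ± 0.153 SE, limma-trend FDR = 0.0106). Both stayed called with the trend subtracted, at -0.72 and -0.40. Irf3, the factor that these sensors activate, averaged 832 ± 140 in libraries labelled Phf23-/- and 560.2 ± 93.8 in WT libraries (log2 fold change 0.57 ± 0.145 SE, limma-trend FDR = 0.0144), and was not called with the trend subtracted (0.23, limma-trend FDR = 0.108). Traf3, an adaptor of these sensors, was called higher with the trend subtracted (0.19, limma-trend FDR = 0.0485) and not as deposited (-0.11, limma-trend FDR = 0.517).

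Of 9 measured receptors and kinases 0 were called higher and 1 lower, against 29.6% of all genes called, with log2 fold changes from -0.49 to 0.62. The called gene was Il10rb, a shared subunit of the interferon lambda and IL-10 receptors, at 88.9 ± 8.63 normalised reads in libraries labelled Phf23-/- and 125 ± 15.6 in WT libraries (log2 fold change -0.49 ± 0.155 SE, limma-trend FDR = 0.0326), and it stayed called with the trend subtracted (-0.55, limma-trend FDR = 0.0204). The list of other STAT and IRF factors also holds Irf2bp1, Irf2bp2 and Irf2bpl, which are not STAT or IRF factors. Of its 10 measured genes, 3 were called higher and 0 lower, against 14.8% of all genes in each direction. The 3 were Irf3, which is also on the list of sensors and relays above, and the corepressor genes Irf2bp1 and Irf2bp2. Irf2bp1 averaged 1470 ± 175 in libraries labelled Phf23-/- and 1040 ± 282 in WT libraries, and Irf2bp2 averaged 1269 ± 165 in libraries labelled Phf23-/- and 922 ± 207 in WT libraries (limma-trend FDR = 0.0316 and 0.0389). Irf2bp2 stayed called with the trend subtracted (0.58, limma-trend FDR = 0.0206) and Irf2bp1 did not (0.16, limma-trend FDR = 0.193). Stat3, a factor of cytokine signalling, was called higher with the trend subtracted (0.40, limma-trend FDR = 0.00103) and not as deposited (0.18, limma-trend FDR = 0.153).

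Of 6 feedback inhibitors 0 were called by limma-trend in either direction, against 29.6% of all genes. Their log2 fold changes ran from -0.29 to 0.67, and 2 had an unadjusted p under 0.05. The filtered edgeR fit called 0 of the 4 it kept, against 35.1% of all genes it kept. DESeq2 called 1, against 35.5% of all genes. Usp18, which removes ISG15 from proteins and blocks the receptor, averaged 11.7 ± 6.57 normalised reads in libraries labelled Phf23-/- and 8.77 ± 5.46 in WT libraries (log2 fold change 0.41 ± 0.474 SE, limma-trend FDR = 0.540). Of 3 measured chemokine genes 0 were called by limma-trend, against 29.6% of all genes. Their log2 fold changes ran from -0.28 to 0.70, 0 had an unadjusted p under 0.05, and edgeR and DESeq2 called 0.

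Of 35 other measured interferon-induced effectors, 3 were called higher and 3 lower, against 14.8% of all genes in each direction. Their median log2 fold change was 0.01. Trim25, a ubiquitin ligase of the RNA sensor RIG-I, averaged 198 ± 23.9 normalised reads in libraries labelled Phf23-/- and 332 ± 41.7 in WT libraries (log2 fold change -0.74 ± 0.138 SE, limma-trend FDR = 0.00536), and it stayed called with the trend subtracted (-0.51). Eif2ak2, the kinase PKR, and Herc6, an ISG15 ligase in mouse, were the other lower genes, at -0.71 and -0.38 (limma-trend FDR = 0.0380 and 0.0388), and were named after their values were seen. Neither was called with the trend subtracted.

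The higher effectors were all members of the Ifitm family, membrane proteins that hinder virus entry, and all have short transcripts. Ifitm3 averaged 1040 ± 254 normalised reads in libraries labelled Phf23-/- and 613 ± 46.5 in WT libraries (log2 fold change 0.73 ± 0.151 SE, limma-trend FDR = 0.00728), and Ifitm2 averaged 1241 ± 363 in libraries labelled Phf23-/- and 809 ± 146 in WT libraries (0.59 ± 0.188 SE, limma-trend FDR = 0.0332). With the trend subtracted they were at 0.14 and -0.09 and neither was called (limma-trend FDR = 0.265 and 0.537). Ifitm1 had 12 reads in libraries labelled Phf23-/- and 0 in WT libraries. It was 3.87-fold higher with the WT group set to a limit of 3 reads in all and the 12 reads taken as exact. The 12 reads also carry counting error, so this ratio is not a lower bound. Exact Poisson intervals, at the level used for Ifit1, were 6.20 to 20.96 reads in libraries labelled Phf23-/- and 0 to 3.69 in WT libraries. These intervals cover counting error only. Ifitm1 was called as deposited (limma-trend FDR = 0.0222) and not with the trend subtracted (limma-trend FDR = 0.119).

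Antigen presentation genes, which interferon also induces, had 2 called higher and 0 lower of 10 measured, against 14.8% of all genes in each direction. Their median log2 fold change was 0.29. Tapbp, the chaperone tapasin, averaged 838 ± 115 normalised reads in libraries labelled Phf23-/- and 484 ± 52.2 in WT libraries (log2 fold change 0.79 ± 0.124 SE, limma-trend FDR = 0.00272) and stayed called with the trend subtracted (0.58, limma-trend FDR = 0.00139). Psmb10, an immunoproteasome subunit, averaged 546 ± 110 in libraries labelled Phf23-/- and 318 ± 42.6 in WT libraries (0.77 ± 0.150 SE, limma-trend FDR = 0.00619) and was not called there (0.28, limma-trend FDR = 0.0783). With the trend subtracted the list had 1 higher and 1 lower, the second being H2-D1, a class I heavy chain gene, at -0.27 (limma-trend FDR = 0.0393) against 0.042 as deposited (limma-trend FDR = 0.817).

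**Figure D5:**
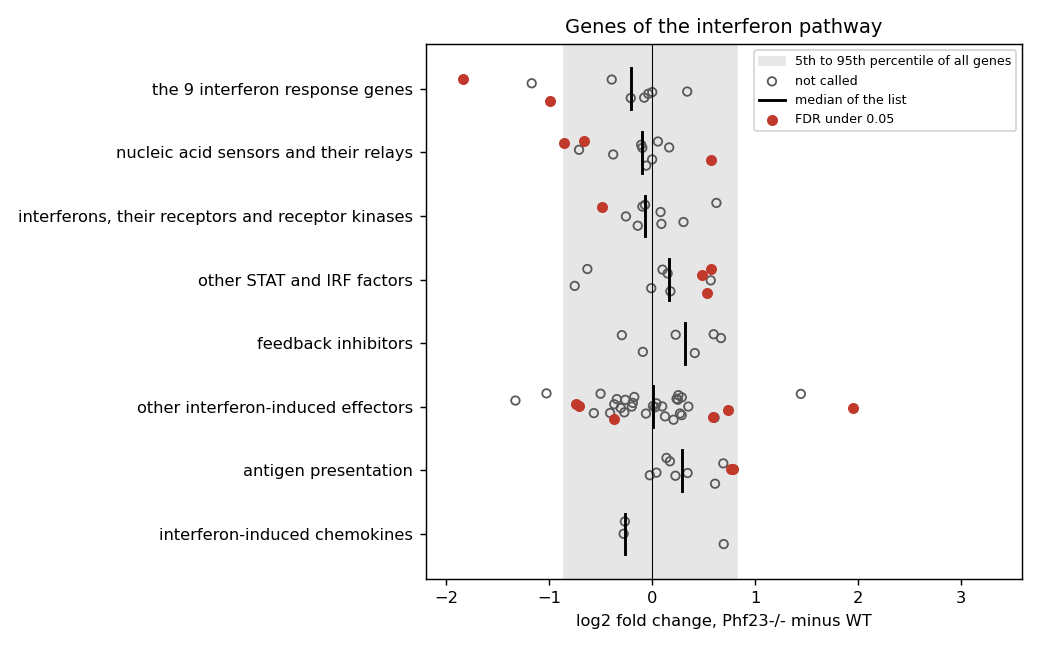
Log2 fold change (libraries labelled Phf23-/- minus WT) of every measured gene in each list of the interferon pathway, with the list median as a bar, calls at an FDR under 0.05 filled and the 5th to 95th percentile of all genes (-0.86 to 0.82) shaded. Medians of the lists lie between -0.27 and 0.32, and calls fall on both sides of 0.

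Other cell types can carry interferon response genes, and microglia are a common one in brain cultures. Of 14 microglia and macrophage markers, 11 had no value in the table used here, among them Cx3cr1, Csf1r, Tmem119 and Ptprc. Of the 3 measured, 0 were called by limma-trend, against 29.6% of all genes (1 had an unadjusted p under 0.05, and edgeR and DESeq2 called 0). Their log2 fold changes ran from -0.55 to 0.72, with a median of 0.39. The summed level of these 3, mostly Cd68, ran from 240 to 440 normalised reads in libraries labelled Phf23-/- and from 217 to 264 in WT libraries (exact permutation p = 0.0857). Endothelial markers summed to 62.3 to 81.2 normalised reads in libraries labelled Phf23-/- and 64.1 to 97.9 in WT libraries, with 4 of 6 measured and a median log2 fold change of 0.13. Of these 4, 1 was called, as lower, against 14.8% of all genes. It was Flt1, at -1.96 (8.31 ± 5.27 in libraries labelled Phf23-/- and 30.6 ± 2.40 in WT libraries, limma-trend FDR = 0.00769). Pecam1, Tek and Kdr were at 0.89, 0.24 and 0.0082 and not called. Fibroblast and pericyte markers summed to 24.1 to 46.0 in libraries labelled Phf23-/- and 14.7 to 31.7 in WT libraries, and the single measured lymphocyte marker had 11.2 to 18.6 in libraries labelled Phf23-/- and 4.8 to 13.6 in WT libraries. Their part in the Ifit2 and Ifit1 differences was not tested. In bulk RNA, fewer cells of a type and less RNA per cell cannot be told apart.

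The median deviation of the 5 better supported genes from their own mean (log2 scale) ran from -0.31 to 0.17 in libraries labelled Phf23-/- and from 0.09 to 0.28 in WT libraries. Among 13266 other genes, those nearest to that median profile were Pdia4, Zfp160, Zfand2a, Slc22a5 and Csnk2a1, with a mean absolute difference over 8 libraries of 0.05 to 0.06 on the log2 scale, and a limma-trend FDR from 0.0724 to 0.504. Nearest to the profile of Ifit2 alone, a comparison added after its values were seen, were Npnt, Cald1, Zc3hav1, Pde2a and Plxnc1, at 0.07 to 0.09. Zc3hav1 had 237, 236, 244 and 300.4 normalised reads in libraries labelled Phf23-/- 1 to 4, against 541, 483, 514 and 481 in WT 1 to 4, with a log2 fold change of -0.99 ± 0.118 SE. These genes were picked for their likeness to Ifit2, so such values follow from the choice and are no separate result.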

How the data were processed

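RNA was sequenced from 8 libraries of neurospheres, 4 labelled Phf23-/- and 4 labelled WT, each grouped by its genotype label. Per the submitters' processing notes, the tools were STAR 2.7.1a, DESeq2 1.38.3, FastQC 0.12.1 and fastp 0.23.4, and the build was mm10. The read counter, annotation, strand setting and gene filter are not given in the sources. The deposited signal is a normalised read count, each gene's reads over a size factor of its library. As a check, at a tolerance of 1e-04 reads, 100% of values in each library were whole multiples of 1 step, which gave back whole reads. Of 15602 rows, 64 repeated another row, leaving 15538 genes. The lowest gene total was 11 reads. The Ensembl identifiers matched GENCODE M21, the mm10 assembly, for 15531 genes. All 9 genes matched RefSeq promoters (12 windows).

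Because the values were normalised, the test was limma-trend, robust (limma 3.58.1, R 4.3.3), on log2(value + 1), two-sided, with genotype as the only term and Benjamini-Hochberg adjustment over 15538 genes. Fold changes on this scale understate those of genes with few reads. Raw counts were tested with edgeR 4.0.16 and DESeq2 1.42.0. The length and GC trend was a loess fit (span 0.3) to 13265 genes that averaged 10 normalised reads or more. It was also subtracted from sparser genes outside that fit, among them Ifit1, Ifit3, Irf7, Isg15 and Ifitm1. How well it holds for such genes was not tested. Library measures were compared by two-sided exact permutation tests. The fits were tested on simulated data. No 2 libraries of a group agreed within sampling noise (chi-square per gene from 5.99 to 78.5).

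The 9 genes and all lists were chosen with earlier results of these data known. From each list, up to 4 called genes of lowest FDR were named, with Usp18 and Irf3. Stat3, Traf3, H2-D1, Pecam1, Tek and Kdr were named after their values were seen, and 1 further gene of that rule is not reported here. Alternatives tried were edgeR with DESeq2 size factors or no filter, limma-voom, a minimum mean of 10, a pseudocount of 0.1, library size only, a replicate block, 3 treatments of transcript length and leaving out each library.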

Additional observations from a re-analysis of the deposited data

Results flagged for a closer look

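Of 18 groups of 4 libraries examined, 2 held a library far from the other three, and about 1 in 20 is flagged by chance. Ifit3 had 11.6 normalised reads in the library Phf23-/- 1, against 4.21 to 4.89 in the other libraries of that label. Irf1 had 151 normalised reads in the library WT 2, against 197 to 205 in the other WT libraries.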

How the results depend on the processing

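Ifit2 kept its direction in all 21 alternatives and its call in 20, losing it with the length slope as a covariate. The count of called genes among the 9 was 2 as reported. It was 1 (Ifit2) with edgeR by TMM, with edgeR by DESeq2 size factors, with edgeR without a filter, with limma-voom, with a pseudocount of 0.1, with a minimum mean of 10, and without the 4 libraries of the steepest length slope, and 0 with the slope covariate. The filtered edgeR and limma-voom fits and the minimum mean left out the 4 sparse genes. Leaving out 1 library gave 1 to 2, with 2 without Phf23-/- 3 (Ifit2 and Ifit1) and without Phf23-/- 4 (Ifit2 and Bst2), and 1 without any of the others. Among the 83 other pathway genes 14 were called, against 9 with the length and GC trend subtracted, 5 without the 4 libraries, 0 with the covariate and 6 to 16 without any 1 library. Over all genes 4593 were called, against 2860, 1422, 170 and 1884 to 5861 in those fits. The lowest count, 1884, was without Phf23-/- 1, and it was 2189 without WT 1 and 2106 without WT 2. With library size only, 1827 genes were higher and 2757 lower, against 2301 and 2292.

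Same-numbered libraries did not deviate together (r from -0.33 to -0.13 across genes), and no library correlated best with its own number, so the numbers give no pairing. With the replicate block 333 genes were called, 1 of the 9 (Ifit2) and 1 of the 83. With the block and the trend subtracted the counts were 1482, 1 and 5.

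The sign of some log2 fold changes turned. Stat2 was at 0.17 with the covariate and 0.055 without the 4 libraries. Irf9 was at -0.0056 with edgeR by DESeq2 size factors, -0.0064 with edgeR without a filter, -0.0082 with DESeq2 and -0.062 by library size. Irf1 was at 0.019 with the covariate, and Isg15 at 0.055 with edgeR without a filter and 0.062 with DESeq2. Bst2 was at -0.30 with the trend subtracted, with or without the block, at -0.28 with the covariate and at -0.057 without the 4 libraries. Ifitm2 was at -0.090 with the trend subtracted, with or without the block, and at -0.14 with the covariate. With the covariate Usp18 was at -0.17, Eif2ak2 at 0.21, Pdia4 at 0.016, Zfand2a at 0.036 and Slc22a5 at 0.070, and Ifit1bl2 was at 0.21 without the 4 libraries. Without 1 library, Irf9 ran from -0.094 to 0.10, Irf1 from -0.14 to 0.060, Isg15 from -0.38 to 0.19, Ifit1bl1 from -0.055 to 0.61 and Ifit1bl2 from -0.65 to 0.19. The causes of these changes were not tested. Depth limits Ifit1, Ifit3, Irf7 and Isg15.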
